A study of Homo sapiens with 4 samples.

Results

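The genes described here encode subunits of the proteasome or factors named with them, and of 11963 genes with an unambiguous probe set on the arrays they number 35. They were taken by name alone: every probe set whose platform annotation gives 1 symbol of the PSMA, PSMB, PSMC, PSMD, PSME or PSMF families, with PSMB8 and PSMB9 left out, which gave 58 probe sets. The families supplied 6 genes of the alpha ring, 8 of the beta ring, 5 ATPases of the base, 12 PSMD genes and 4 activator or inhibitor genes. The PSMD genes encode further parts of the regulatory particle and chaperones of its base. RNA came from 2 established human lines of Philadelphia chromosome-positive leukemia, BV-173 and SUP-B15, both of which express the BCR-ABL1 fusion kinase. The 4 groups were BV-173 untreated, BV-173 with STI571, SUP-B15 untreated and SUP-B15 with STI571, the treated cells having received 10 μmol/l for 16 h. STI571 (imatinib) inhibits the ABL kinase. Each group had 1 array, so no group has a replicate spread, and 4 arrays set the limit on precision.

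The proteasome degrades proteins tagged with ubiquitin. Its core particle is a barrel of alpha and beta rings whose proteolytic sites lie on beta subunits; a regulatory particle caps it, and its ATPases unfold the substrate while its other subunits bind ubiquitin chains and remove them. Subunit genes are known to be transcribed in concert, in part through the factor NFE2L1, and drugs that block the core particle are used to treat multiple myeloma.

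The deposited values are signal intensities per probe set, scaled by the authors array by array. The median signal over all probe sets was 95.5 to 115 on the 4 arrays. Treated BV-173 stood apart in its 18S ribosomal RNA controls, with a mean of 2817 against 1513 to 1596 elsewhere, and the part of this in the results was not tested. Of the precursor B cell markers on the arrays 7 of 7 reached the median of at least 1 array, their summed signal being 9268 to 47993, although the surface antigen MME gave only 31.3 and 81.4 in BV-173. Of the T cell markers 0 of 5 reached it (summed signal 97.4 to 234), of the monocyte and granulocyte markers 1 of 5 (100.7 to 248), of the erythroid markers on the arrays 1 of 2 (58.3 to 128) and of the natural killer cell markers 2 of 4 (227 to 482). Changes below are differences of log2(signal + 24.5), a scale that understates the change of dim genes. The brightest probe set stands for a gene. Because probes differ in brightness for reasons other than RNA amount, no gene's signal is set against another's.

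The first question was how the proteasome genes responded to STI571. None of the 35 was called: limma, with a term for the line and one for STI571, gave adjusted p-values (Benjamini-Hochberg over 7916 genes) of 0.199 or more. Of all genes tested, 1.62% were called lower and 1.40% higher. At those shares 0 calls among 35 genes does not set the proteasome genes apart. At an unadjusted p under 0.05 there were 2 member genes, PSME3 and PSMD1, against 970 of the 7916. The mean change of both lines ran from −0.55 to 0.40 over the 35 genes with a median of −0.06, while the middle 80% of all genes spanned −0.54 to 0.57 around a median of 0.02.

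A mean change of at least 1.5-fold in either direction was found in 0 of the 35 genes and in 18.1% of all genes. Most proteasome genes are bright, and the fitted standard error is smaller for bright genes (median 0.21 above the 75th percentile of mean level, 0.28 over all genes). Above that percentile 8.69% of genes passed 1.5-fold, against 0 of the 29 proteasome genes there. In BV-173 alone 1 of 35 changed by at least 1.5-fold (27.2% of all genes), and in SUP-B15 alone 0 of 35 (26.1%). These counts describe 1 pair of arrays per line and carry no test.

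The precision bounds this result. The standard error of the mean change was 0.20 to 0.24 for each gene except PSMD5 (0.54), and over the 34 others the 95% limma intervals reached from −0.98 to 0.82. Among genes at least as bright as the dimmest of these 34, the smallest change that was called was 0.66, so smaller shifts could not be told from 0 here. The fit has 1 residual degree of freedom and took its spread from the trend over all genes; without that trend, or without the cell line as a block, limma called 0 of the 7916 genes (0 of the 35 at an unadjusted p under 0.05).

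How the 2 lines compared depends on the scaling. As deposited, BV-173 had a median proteasome change of 0.02 and SUP-B15 of −0.15, against 0.05 and −0.01 over all genes. In both lines 14 of 35 were lower after treatment (26.5% of all genes) and 5 of 35 higher (28.8%). Opposite signs were found for 16 of 35 (44.7% of all genes), and in 14 of these BV-173 was higher and SUP-B15 lower, a pattern of 24.8% of all genes. With the arrays set to a common median the proteasome medians became −0.15 and −0.04 and those of all genes −0.11 and 0.08, so the order of the lines turned. With quantile normalization the proteasome medians were 0.04 and −0.17 and those of all genes 0.01 and −0.00, so in BV-173 the proteasome median lay above that of all genes there and under it in the other settings named. Under the common median, genes higher in BV-173 and lower in SUP-B15 were 7 of 35 (15.1% of all genes). Those of opposite sign were 17 of 35 (46.5%) and those lower in both lines 15 of 35 (27.9%). Under quantile normalization these counts were 16 (22.8% of all genes), 17 (44.4%) and 13 (27.3%). Signs in single lines below are those of the deposited scaling.

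**Figure D1:**
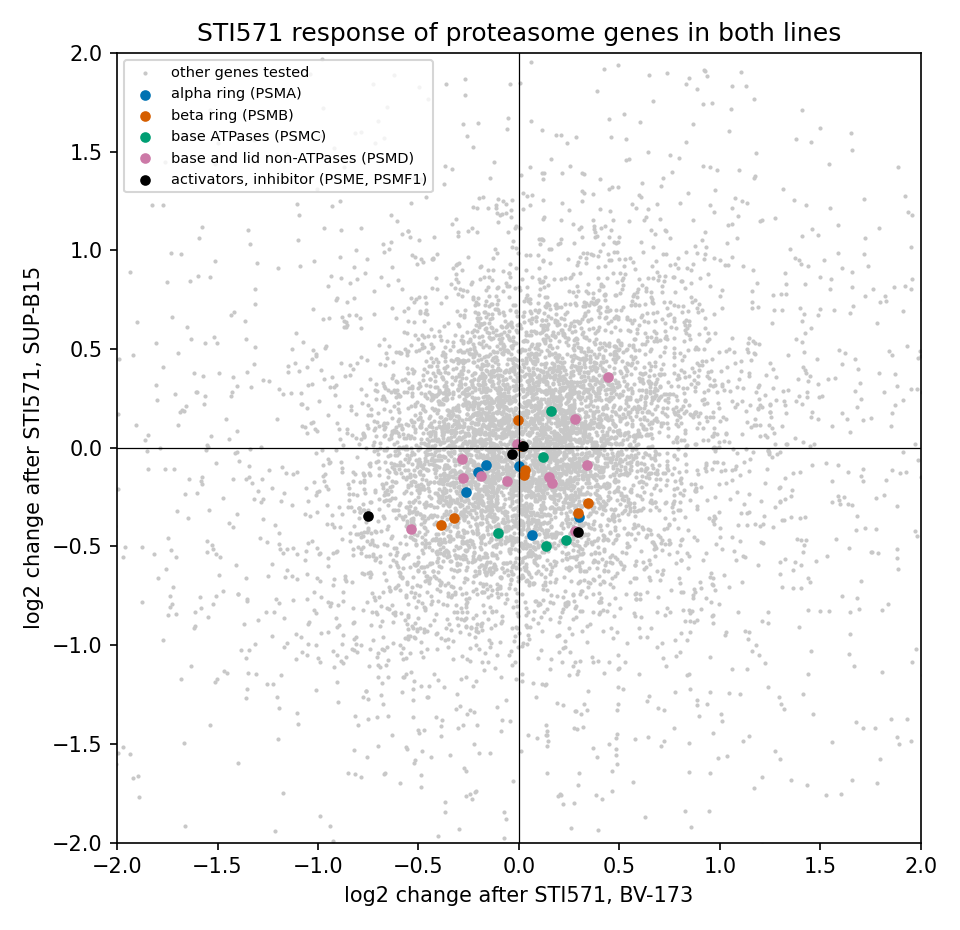
Each point is 1 gene, with the log2 change after STI571 in BV-173 on the x axis and in SUP-B15 on the y axis; grey points are the other genes tested (248 of all genes fall outside the plotted range of 2 either way) and coloured points the proteasome genes by family. The proteasome genes sit close to the origin, between −0.75 and 0.44 in BV-173 and between −0.50 and 0.36 in SUP-B15.

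The alpha ring forms the gate of the core particle. Its 6 genes, PSMA2, PSMA3 and PSMA5 included, had mean changes of −0.24 to −0.03 with none called (0 at an unadjusted p under 0.05), and 4 were lower in both lines, 3 with a common median. PSMA7 gave signals of 5482 and 4565 in untreated and treated BV-173 and of 5754 and 4921 in SUP-B15, the lowest mean change of the ring. Both treated arrays were below both untreated ones for PSMA7, yet the mean change of −0.24 (SE 0.20) did not pass (adjusted p = 0.755). PSMA4 was level, with 7081 and 7077 in BV-173 and 7576 and 7115 in SUP-B15. PSMA1 had 8631 and 10623 in BV-173 but 10293 and 8066 in SUP-B15. This brightest probe set also went opposite ways with a common median (0.13 and −0.24). As deposited, its dimmer probe sets changed less in BV-173, with 0.08 and −0.42 and with 0.05 and −0.60 in the 2 lines.

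The beta ring holds the proteolytic sites. PSMB6, the caspase-like subunit, had signals of 2442 and 2460 in BV-173 and 2009 and 2025 in SUP-B15, a mean change of 0.01 (95% interval −0.39 to 0.42). PSMB7, the trypsin-like subunit, had 2519 and 2575 in BV-173 and 4172 and 3854 in SUP-B15, a mean change of −0.04 (interval −0.44 to 0.36). For both genes the treated array lay close to its own untreated partner. PSMB5, the chymotrypsin-like subunit and main target of proteasome inhibitor drugs, had 991 and 1222 in BV-173 but 943 and 744 in SUP-B15. Its log2 changes of 0.30 and −0.33 cancelled in the mean of −0.02 (interval −0.46 to 0.43). PSMB10, the inducible counterpart of PSMB7, had 2122 and 2703 in BV-173 but 2156 and 1770.5 in SUP-B15, so that the lines, level when untreated, were apart after treatment.

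The structural beta subunits PSMB2 and PSMB3 had the lowest mean changes of the ring. PSMB2 gave 4046 and 3081 in BV-173 and 3437 and 2613 in SUP-B15, a log2 change of −0.39 in each line (SE 0.20, adjusted p = 0.431). PSMB3 gave 4938 and 3939 in BV-173 and 5059 and 3952 in SUP-B15, a mean change of −0.34 (SE 0.20, adjusted p = 0.557). Both treated arrays were below both untreated ones for either gene, but neither gene was called. A dimmer probe set of PSMB2 gave a mean change of −0.11. PSMB4, also structural, had 5657 and 5646 in BV-173 and 6582 and 7249 in SUP-B15, the highest mean change of the ring at 0.07, though its dimmer probe set gave −0.09. The remaining PSMB1 gave a mean change of −0.06.

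Of the base ATPases, which form the unfolding ring, 3 of 5 had a positive change in BV-173 and a negative one in SUP-B15, but 1 of 5 with a common median. The ATPases had median changes of 0.13 for BV-173 and −0.43 for SUP-B15, the lowest median of any family in either line, and −0.04 and −0.33 with a common median. PSMC1 had 2993 and 3527 in BV-173 but 3074.5 and 2215 in SUP-B15. PSMC2 had 3063 and 3364, then 4530 and 3197, a log2 change of −0.50 in SUP-B15. In both genes treated SUP-B15 was well under its untreated partner. The BV-173 change was positive in both, in PSMC1 also with a common median (0.06) and in PSMC2 not (−0.04). A dimmer probe set of PSMC2 did not repeat this, with log2 changes of −0.09 and 0.31. PSMC3 was lower in both lines, from 1514 to 1408 and from 2547 to 1880, a mean change of −0.27 (SE 0.21, adjusted p = 0.723). PSMC6 was higher in both, from 3404 to 3800 and from 3410.5 to 3880 (mean change 0.17, adjusted p = 0.857), while PSMC4 had a mean change of 0.04.

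Among the PSMD genes PSMD1, a scaffold of the base, had the lowest mean change and PSMD9, a chaperone that helps the base assemble, the highest. PSMD1 gave 1230 and 841 in BV-173 and 1657 and 1242 in SUP-B15. Its mean change was −0.47 (SE 0.22, adjusted p = 0.321), and its second probe set gave −0.24. PSMD9 gave 1170 and 1598 in BV-173 and 1217 and 1568.5 in SUP-B15. Its mean change was 0.40 (SE 0.22, adjusted p = 0.463), with both treated arrays above both untreated ones. A second, dim probe set of PSMD9 gave a mean of 0.40 from log2 changes of 1.31 and −0.52.

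The subunits that recognise and cut ubiquitin were not called. PSMD2, which binds ubiquitin-like domains, had 2751 and 3338 in BV-173 and 2229 and 2466 in SUP-B15, higher after treatment in both lines (mean change 0.21, interval −0.19 to 0.61). PSMD4, a receptor for ubiquitin chains, had 2894 and 3664 in BV-173 and 2957 and 2778 in SUP-B15. Its mean change was 0.12 (interval −0.28 to 0.52). The dimmer PSMD4 probe sets past the filter were higher in both lines, by 0.32 and 0.42 and by 0.48 and 0.02. PSMD14, the deubiquitinase of the lid, had 4217 and 4728 in BV-173 and 3332 and 2938 in SUP-B15. Its mean change was −0.01 (interval −0.41 to 0.39), the lines having opposite signs as deposited but not with a common median. PSMD6, a lid scaffold, had 2734 and 3316.5 in BV-173 but 4412 and 3291 in SUP-B15, so that the lines were level after treatment. The mean changes of PSMD3, PSMD8, PSMD11 and PSMD12 were −0.21 to −0.11, and all 4 were lower in both lines as deposited. Dimmer probe sets did not repeat this, with 0.00 and 0.40 for PSMD11 and −0.55 and 0.03 for PSMD12 in BV-173 and SUP-B15.

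PSME3, which encodes the nuclear activator of the core particle, had the largest mean change of the 35 genes and was not called. Its signals were 1342 and 788 in BV-173 and 1558 and 1222 in SUP-B15, log2 changes of −0.75 and −0.34 (mean −0.55, SE 0.22, adjusted p = 0.199). It was the 1 gene past 1.5-fold in BV-173. The other 3 probe sets of PSME3 gave −0.55, 0.17 and −0.11 in BV-173 and −0.54, −0.56 and −0.45 in SUP-B15, so all 4 were lower after treatment in SUP-B15 and 3 of 4 in BV-173. Each of the 4 has an identifier (_s or _x) of the kind the manufacturer gives to probes that may read more than 1 transcript. PSME1, a subunit of the interferon-inducible activator, had 7085 and 8700 in BV-173 but 7078 and 5252 in SUP-B15, the widest gap between the lines' responses among the 35. PSME4, a further activator, had 641 and 651 in BV-173 and 822 and 828 in SUP-B15 (interval of the mean change −0.45 to 0.49). PSMF1, an inhibitor and adaptor of the core particle, had 1221 and 1193 in BV-173 and 620 and 605 in SUP-B15, a log2 change of −0.03 in each line.

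**Figure D2:**
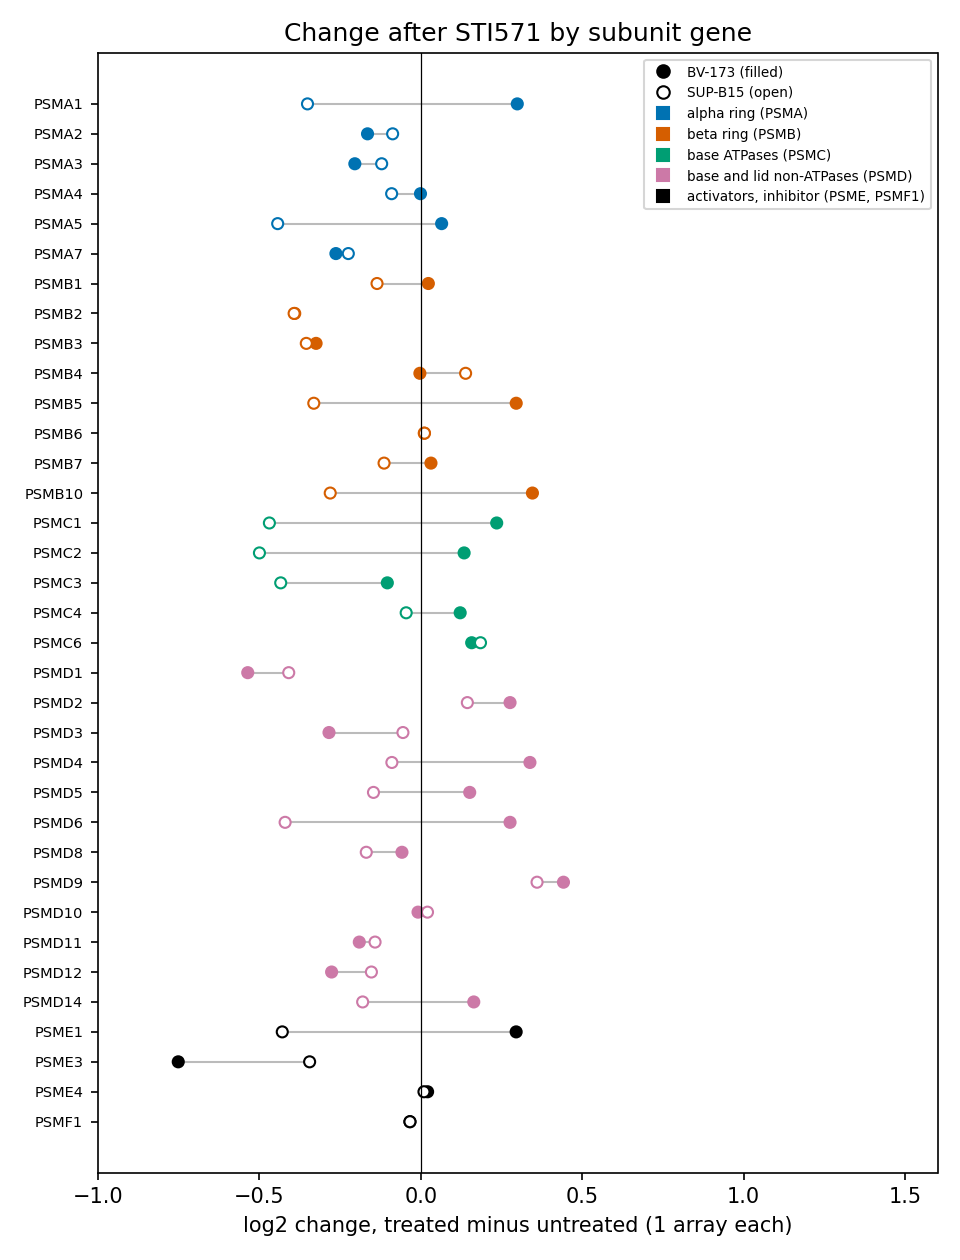
Log2 change after STI571 of each proteasome gene (x axis), filled circles for BV-173 and open circles for SUP-B15, 1 array pair each, joined by a line and coloured by family. PSME3 and PSMD1 lie furthest left in BV-173, PSMC2 and PSMC1 in SUP-B15, and PSMD9 furthest right in both. PSMC1 and PSMC2 lie on opposite sides of 0 in the 2 lines as deposited, PSMC2 not with a common median.

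Genes that build and regulate the proteasome gave 1 call for STI571. Of 12 measured genes 1 was called higher (1.40% of all genes) and 0 lower (1.62%), with a median mean change of −0.01. The gene called was NGLY1, the glycanase that processes NFE2L1 into its active form. NGLY1 rose, with 3866 and 9333 in BV-173 and 3655 and 4826 in SUP-B15, a mean change of 0.83 (SE 0.20, adjusted p = 0.00351). A second, gene-specific probe set of NGLY1 was also higher in both lines, from 184 to 325 and from 157 to 237, but the call ended with the mean of both probe sets (adjusted p = 0.101) and with gene-specific probe sets alone (0.522), and without the trend or the block. Its adjusted p reached from 0.000904 to 0.9999 across the settings.

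NFE2L1 itself had 523 and 707 in BV-173 and 795 and 1051 in SUP-B15 (mean change 0.40, adjusted p = 0.545), and its related factor NFE2L2 1979 and 2633 in BV-173 and 1762 and 3132 in SUP-B15 (mean change 0.61, adjusted p = 0.0766). For NFE2L1 each treated array was above its partner, as in 2 of its 3 probe sets, and neither factor was called. POMP, which matures the core particle, went from 13885 to 10915 and from 10266 to 7513 (mean change −0.40, adjusted p = 0.467). UCHL5, a deubiquitinase of the regulatory particle, had a mean change of −0.44 (adjusted p = 0.423).

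Genes of ubiquitin and of delivery to the proteasome gave 0 calls for STI571 of 14 measured (1 at an unadjusted p under 0.05), with a median of 0.02. The furthest were the conjugating enzyme UBE2N at −0.43 (adjusted p = 0.339) and the shuttle factor UBQLN2 at 0.40 (adjusted p = 0.483). Antigen processing genes, which use the peptides the proteasome makes, gave 0 of 10 calls (1 at an unadjusted p under 0.05) with a median of 0.05, the furthest being PDIA3 at −0.43 (adjusted p = 0.346) and IRF1 at 0.31 (adjusted p = 0.699). The COP9 signalosome, whose subunits resemble those of the lid, gave 0 of 9 (0 at an unadjusted p under 0.05) with a median of −0.15, COPS7A standing at −0.40 and COPS6 at −0.39. The cytosolic chaperonin gave 0 of 7 (1 at an unadjusted p under 0.05) with a median of −0.24, the lowest single change being −0.44 for CCT5. All these calls are those of limma over the 7916 genes, of which 1.62% were called lower and 1.40% higher. At an unadjusted p under 0.05 there were 970 of the 7916. At those shares 0 calls in lists this short sets no list apart.

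The second question was how the 2 lines differed. PSMD5, an assembly chaperone of the base that is not part of the finished proteasome, separated them most: its signal was 5.3 and 8.6 in untreated and treated BV-173, and 609.5 and 548 in SUP-B15. Both BV-173 values are below the 25th percentile of their array (21.6 and 23.9), and both SUP-B15 values are above the 75th (495.2 and 498.6). On the log2(signal + 24.5) scale the difference was 4.26, being 4.41 without and 4.11 with STI571. It is set against dim values and has no firm size, moving to 6.22 with a pseudocount of 1 and to 2.69 with one of 98. PSMD5 passed the filter through SUP-B15 alone, so a gene selected in this way had to differ, and its call (adjusted p = 1.09e-13) is no support for the difference. A second PSMD5 probe set was dim on every array, with 49.0 and 25.1 in BV-173 and 5.1 and 33.6 in SUP-B15, under the median of each array, so the difference rests on 1 probe set. After STI571 PSMD5 had a mean change of 0.00 (interval −1.05 to 1.06).

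In all, 7 of the 35 genes were called between the lines, 3 higher in SUP-B15 (14.4% of all genes) and 4 lower (14.4%); without PSMD5 they were 2 higher and 4 lower of 34. As shares of the 35 these are 8.57% and 11.4%, from few genes. The median difference was 0.01, against −0.04 over all genes. With a common median 1 was called higher and 3 lower, the median becoming −0.11 and that of all genes −0.15.

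PSMA3, of the alpha ring, was 1.92-fold lower in SUP-B15: 5339 and 4631 in BV-173 against 2685 and 2467 in SUP-B15 (difference −0.94, SE 0.20, adjusted p = 3.7e-05). PSMF1 was 1.93-fold lower (−0.95, SE 0.23, adjusted p = 0.000319), and its second probe set gave −0.55. In both genes each BV-173 array was above each SUP-B15 array. PSMB7, the trypsin-like subunit, was 1.57-fold higher in SUP-B15 (0.65, SE 0.20, adjusted p = 0.00723) and the ATPase PSMC3 1.49-fold higher (0.58, SE 0.21, adjusted p = 0.0245). PSMD10, the oncoprotein gankyrin and a chaperone of the base, was lower in SUP-B15, with 2146 and 2134 in BV-173 against 1471 and 1492 (−0.52, SE 0.21, adjusted p = 0.0452). PSMD14 was lower too (−0.51, SE 0.20, adjusted p = 0.0445), by 0.34 untreated and 0.68 treated.

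The other 6 calls depend on the fit. Without the intensity trend all 6 were lost, PSMA3 (adjusted p = 0.0949) and PSMF1 (0.0935) among the losses, in ranges of 1.56e-05 to 0.0949 and 0.000208 to 0.0935 over the alternatives. Without a treatment term PSMB7, PSMC3, PSMD10 and PSMD14 lost theirs, the first 3 also with a common median, and PSMD10 with quantile normalization. PSMD14, which has 1 probe set, kept its difference of −0.51 but not its call (adjusted p = 0.0515) when other genes were given the mean of their probe sets. Of the other subunits PSMD1 was nearest to a call, at 0.49 higher in SUP-B15 (adjusted p = 0.0812).

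**Figure D3:**
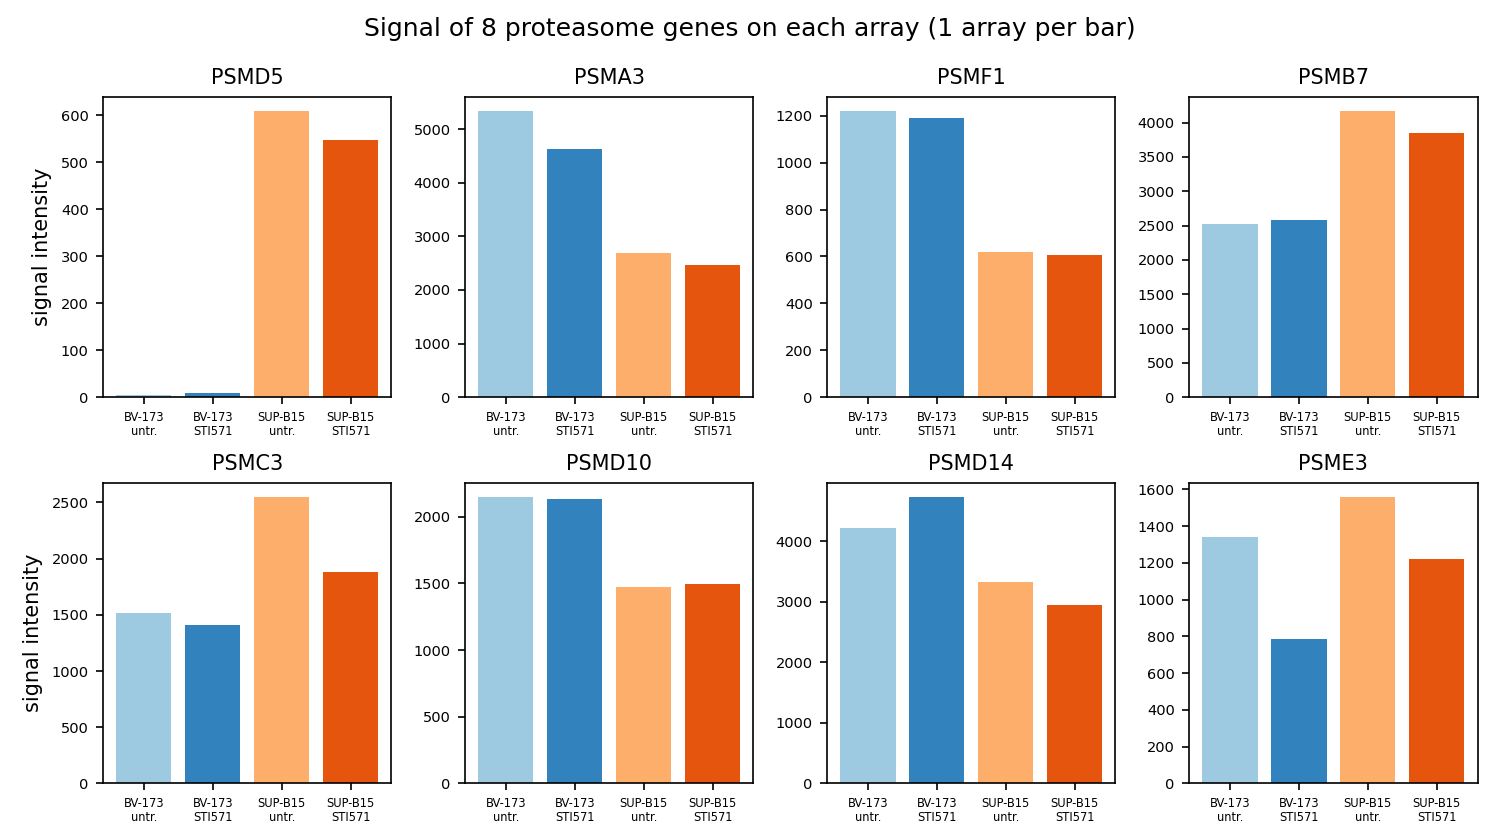
Signal intensity (linear y axis from 0, its range set for each gene) of the 7 genes called between the lines and of PSME3, 1 bar per array. PSMD5 is near 0 in both BV-173 arrays and at 548 to 610 in SUP-B15, PSMA3 and PSMF1 are higher in BV-173, and PSME3 is lower after STI571 in both lines.

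**Figure D4:**
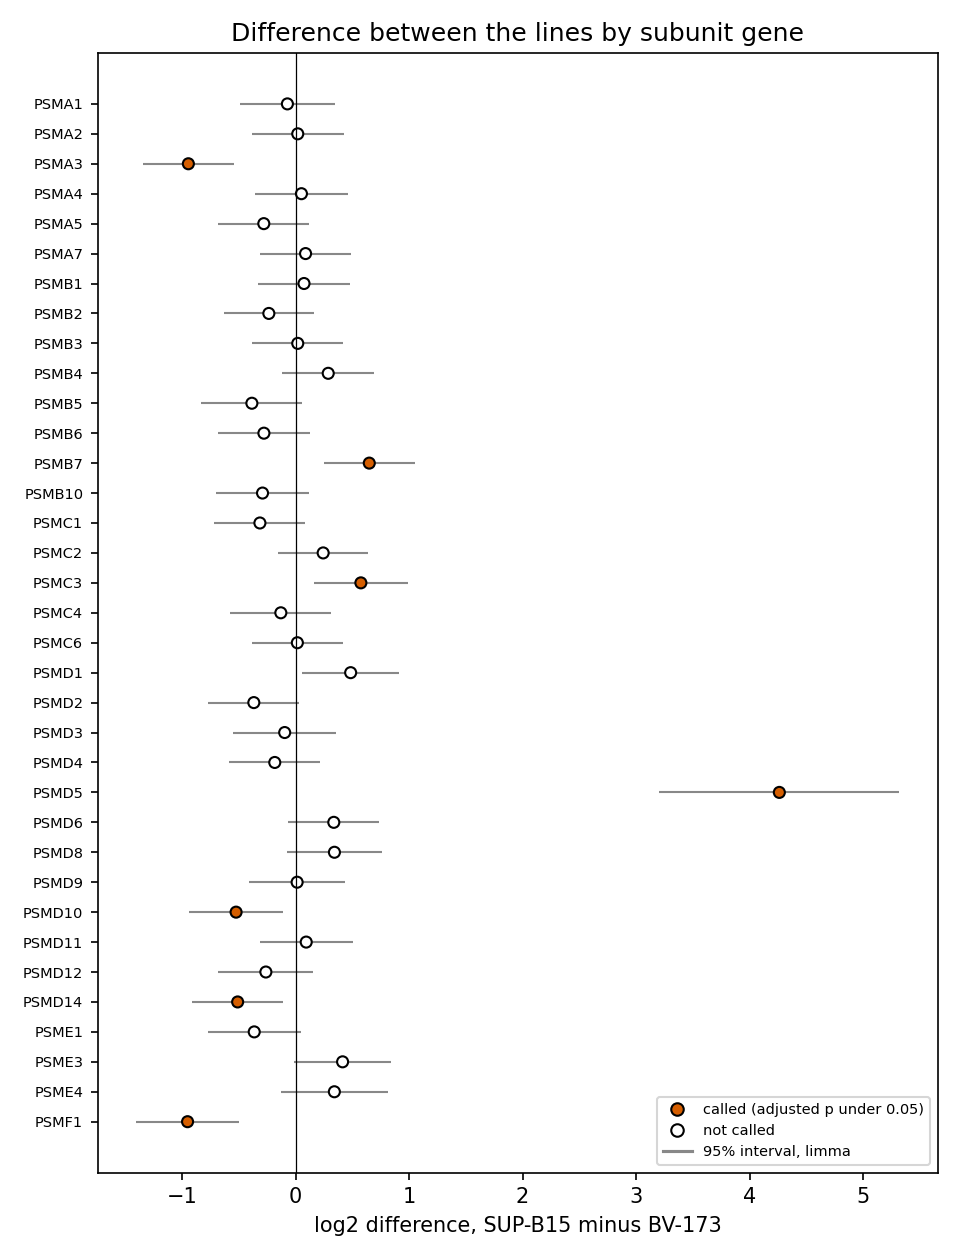
Log2 difference of SUP-B15 minus BV-173 for each proteasome gene (x axis), mean of the untreated and treated arrays, with the 95% limma interval as a bar and called genes filled. PSMD5 stands at 4.26, all the others lie between −0.95 and 0.65.

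Several probe sets of 1 gene differed between the lines while the brightest did not. Of the 15 genes with more than 1 probe set past the filter, the second brightest had the same sign as the first in 11 for STI571 and in 13 for the line difference. With each probe set tested on its own (11818 in all), a dimmer gene-specific probe set of PSMA2 was called higher in SUP-B15 (0.88, adjusted p = 0.0013), where the brightest gave 0.02. A dimmer probe set of PSMD12, a lid subunit, was also called (0.82, adjusted p = 0.0128), where the brightest gave −0.26, the opposite sign. A dimmer probe set of PSME3 was called (0.66, adjusted p = 0.0266), where the brightest gave 0.41. Whether such pairs read different transcript ends was not tested. For STI571 0 of the 55 member probe sets were called in that fit (3 at an unadjusted p under 0.05).

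Around the proteasome the line difference took in 4 of 12 assembly and regulation genes, 1 higher and 3 lower, beside 14.4% of all genes in each direction. TXNL1, a redox protein bound to the regulatory particle, was lower in SUP-B15 (−1.20, SE 0.21, adjusted p = 1.16e-07), as were PSMG1, a chaperone of the alpha ring (−1.07, SE 0.20, adjusted p = 2.58e-06), and NGLY1 (−0.51, adjusted p = 0.0436). For NGLY1 the difference was −0.08 between the untreated arrays and −0.95 between the treated ones. ECPAS, a scaffold that binds the proteasome, was higher (0.79, SE 0.23, adjusted p = 0.00286). Of 14 ubiquitin and delivery genes ZFAND5 (0.83, adjusted p = 0.000417) and UBA1, the ubiquitin-activating enzyme (0.74, adjusted p = 0.00203), were higher and NSFL1C lower (−0.66, adjusted p = 0.021). Antigen processing genes gave 0 of 10, COP9 signalosome genes 3 of 9 lower and chaperonin genes 6 of 7 lower, with medians of −0.00, −0.21 and −0.60, beside the same 14.4% of all genes called lower and a median of −0.04. All these line calls come from the fit with the intensity trend. Without the trend, line calls over all genes fell from 2273 to 629, and the calls of these neighbouring genes were not followed there.

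The promoters of the 3 called genes with the largest line differences are shown because these are the members the lines disagree on most. RefSeq gave a 300-base promoter (250 before to 50 after the start) for 30 of the 35 genes, on GRCh38.p14. The stretches below are the 250 bases before the start, 5′ to 3′ on the strand of the gene, at chr9:120842923-120843172 (minus strand) for PSMD5, chr14:58244593-58244842 (plus strand) for PSMA3 and chr20:1113013-1113262 (plus strand) for PSMF1. Capitals mark matches to TGACNNNGC, the core of the antioxidant response element that NFE2L1 and NFE2L2 bind, or to CCAAT, the NF-Y motif, on either strand.
PSMD5: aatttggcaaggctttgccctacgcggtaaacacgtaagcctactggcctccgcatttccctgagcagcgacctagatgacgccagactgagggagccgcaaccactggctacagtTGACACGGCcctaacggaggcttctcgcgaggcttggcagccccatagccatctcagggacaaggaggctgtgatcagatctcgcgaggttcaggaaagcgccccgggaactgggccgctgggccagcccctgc
PSMA3: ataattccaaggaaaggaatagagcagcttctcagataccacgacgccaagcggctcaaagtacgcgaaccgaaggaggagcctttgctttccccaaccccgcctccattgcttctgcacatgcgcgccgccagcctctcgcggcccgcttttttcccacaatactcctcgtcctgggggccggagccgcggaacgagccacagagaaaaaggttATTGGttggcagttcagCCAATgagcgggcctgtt
PSMF1: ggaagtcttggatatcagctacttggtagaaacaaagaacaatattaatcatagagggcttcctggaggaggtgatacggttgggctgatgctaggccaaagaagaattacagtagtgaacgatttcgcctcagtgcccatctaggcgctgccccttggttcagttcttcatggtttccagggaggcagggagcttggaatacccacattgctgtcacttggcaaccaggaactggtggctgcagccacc

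In these windows PSMD5 has 1 antioxidant response core and PSMA3 an inverted pair of CCAAT boxes, and PSMF1 has neither. The RefSeq range of the transcribed pseudogene CUTALP (also PSMD5-AS1) reaches into the PSMD5 window. Over the 300 bases PSMD5 has 19 CpG dinucleotides, PSMA3 22 and PSMF1 4, beside a median of 22 over the 30 proteasome promoters and 14 over all 27305 promoters. The antioxidant response core was present in 9 of the 30 (30.0%) and in 13.6% of all promoters, PSMB3, PSMD1, PSMD3, PSMD9 and PSME1 among its holders. CCAAT was in 14 of 30 (46.7%; 35.7% of all), the ETS motif CCGGAAG in 9 of 30 (30.0%; 10.7% of all) and the E-box CACGTG in 3 of 30, PSMB3, PSMD9 and PSME3 (10.0%; 7.43% of all). All were searched on both strands, and matches may overlap. PSMD1 and PSMD9, with the lowest and highest mean change of the PSMD genes after STI571, both hold the antioxidant response core. Neither was called, and PSMC4, PSMD3, PSMD5 (mean change 0.00) and PSMD12 hold the core too. In PSMD1 the match lies after the start. PSME3 does not hold the core. A match is a description of the letters only.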

How the data were processed

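RNA of BV-173 and SUP-B15 cells, untreated or with STI571, was measured on Affymetrix arrays, 1 array per group. The authors deposited 1 linear signal intensity for each probe set. GCOS 1.3 is named per the submitters' processing notes. How probes were summarised and to which target arrays were scaled is not given in the sources used here, though trimmed means (2% at each end) equalled 500.2 on each array, per the deposited values. Of 22277 probe sets 19064 have 1 gene symbol; 62 controls were left out.

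The log2(signal + 24.5) scale adds the 25th percentile over the 4 arrays. Probe sets reaching the 50th percentile of at least 1 array were kept, which left 55 of 58 member probe sets and all 35 members. The brightest stood for a gene; 19 of these 35 probe sets are gene-specific by their suffix. limma 3.58.1 in R 4.3.3 was fitted over 7916 genes with cell line (which pairs treated with untreated arrays) and treatment, a variance trend on intensity and two-sided calls at a Benjamini-Hochberg adjusted p of 0.05; it was tested on simulated data. With 1 residual degree of freedom and infinite prior degrees of freedom, each error comes from the trend, not from the gene's own spread. The labels name no replicate cultures. With cell line and treatment in the fit, the 1 residual degree of freedom is the gap between the lines' responses to treatment. The p-values therefore set each change or line difference against how far the lines' responses differed in genes of similar brightness. That gap may hold real differences between the lines as well as technical spread, and without replicates these cannot be told apart.

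The members and gene lists were chosen with earlier results of these data known. Named genes are the called members, the 5 largest mean changes each way, the 5 widest gaps between the lines, and a fixed set of catalytic, ubiquitin-binding and activator subunits; of other lists, the called genes and up to 2 with the largest change. PSMA4, PSMA7, POMP, NFE2L1, UCHL5, MME and the second probe sets were picked after their values were seen. Alternatives were quantile normalization, a common median, other pseudocounts, other filters, other choices of probe set, and other variance settings or terms.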

Additional observations from a re-analysis of the deposited data

Results flagged for a closer look

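For 16 of 35 proteasome genes the response to STI571 had opposite signs in BV-173 and SUP-B15, each on 1 pair of arrays, and the difference was not tested. The share over all genes was 44.7%, so the count does not set the proteasome genes apart. The SUP-B15 response minus the BV-173 response was −0.72 for PSME1, −0.70 for PSMC1, −0.70 for PSMD6, −0.65 for PSMA1, −0.63 for PSMC2, −0.63 for PSMB5 and −0.63 for PSMB10, all higher in treated BV-173 and lower in treated SUP-B15. It was −0.51 for PSMA5, −0.43 for PSMD4, −0.34 for PSMD14 and −0.30 for PSMD5. It was −0.17 for PSMC4, −0.16 for PSMB1 and −0.15 for PSMB7. For PSMB4 (0.14) and PSMD10 (0.029) BV-173 was the lower of the pair. These signs are those of the brightest probe set in the deposited scaling. Some rest on changes near 0, as for PSMB4 in BV-173 (−0.003) and PSMD10 in BV-173 and SUP-B15 (−0.009 and 0.021). Dimmer probe sets past the filter were higher in both lines for PSMD4. Those of PSMB1, PSMB4 and PSMC2 had the signs the other way round. With a common median PSMA1, PSMB10, PSMB4, PSMB5, PSMC1, PSMC4, PSMD10, PSMD5, PSMD6 and PSME1 had opposite signs, PSMC4 the other way round. Treated BV-173 is also the array with the higher 18S ribosomal RNA signal; its part in these differences was not tested.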

How the results depend on the processing

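The count of members called for STI571 was 0 in each direction under all alternatives with a treatment term, with 0 to 4 members at an unadjusted p under 0.05. Called between the lines, 3 higher and 4 lower in SUP-B15, became 1 higher with a common median, 2 lower with gene-specific probe sets (22 members), 6 higher with probe sets tested singly (55 member probe sets), 0 lower and 1 higher without the intensity trend in limma (3 members at an unadjusted p under 0.05), and 2 lower and 1 higher without a treatment term; the causes were not tested. The median line difference of 0.01 became −0.11 with a common median. Lower in both lines after STI571 were 6 of the 22 members with gene-specific probe sets, against 14 of 35. With gene-specific probe sets the share of members lower in both lines was close to that of all genes. With the brightest probe sets it lay above that of all genes, so this excess depends on the choice of probe set. The median STI571 change was −0.15 to 0.02 over all settings, including each line alone, which was added after seeing the data. Of the STI571 changes of the named members and NGLY1, 111 alternative values kept their side of the threshold and 4 did not, a direction counting as turned only beyond 1 SE. Of these genes only NGLY1 was called to begin with, so most of the 111 are uncalled genes that stayed uncalled. Of the line differences 59 kept their call, 15 lost it and 0 turned. The 4 were those of NGLY1, with the mean of probe sets, gene-specific probe sets, no intensity trend and no cell line block. The arrays carry no detection calls here, so the PSMD5 signal in BV-173 cannot be set against a stated background.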
